A study of Mus musculus with 24 samples.

Results

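The mouse testis transcribes more of its genome than most other organs, and many of its long noncoding RNAs (lncRNAs) are poorly preserved between species. The 79 array probes described here stand for the testis-specific lncRNAs of the mouse that the study could align in part to a human lncRNA, as named in its sheet of 79 conserved lncRNAs. All 79 were found among the 60804 transcript probes of the array. The sheet itself drew on transcripts already picked as testis-specific on these arrays, so the testis levels below are a description and were not tested. The cell lines were not used in that choice, and only comparisons between lines were tested.

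RNA came from 5 organs of male ICR mice aged 8 weeks (brain, heart, kidney, liver and testis), and from the mouse lines F9, GC-1 and GC-2, with 3 arrays per group and 24 arrays in all. F9 is an embryonal carcinoma line, kept here on gelatin without retinoic acid, the agent that makes it differentiate. GC-1 and GC-2 are immortalised lines made from germ cells of the testis, and are widely used as models of spermatogonia and of later germ cells. No animal or culture carried a further treatment or a mutation, and each line is a single established line, so its 3 arrays measure the spread of cultures or RNA and not of animals. The labels do not say whether cultures were independent, and p-values between lines then cover the spread between these samples only. In whole tissue, fewer cells of a type and less RNA per cell cannot be told apart.

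Spermatogenesis runs from spermatogonia through meiosis to spermatids, which build the acrosome, the flagellum and a compacted nucleus before they are released. Genes for these steps are switched on in waves, and a large part of them is silent in somatic organs. LncRNAs are classed by their place beside coding genes. An exonic sense lncRNA shares exon sequence and strand with a coding gene, and an antisense lncRNA lies on the opposite strand. In the study's scheme a bidirectional lncRNA lies close to a coding region, whatever its direction, and an intergenic lncRNA lies farther from any.

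By the array's classes, 36 members were exonic sense, 19 intergenic, 19 exonic antisense, 3 intronic antisense and 2 bidirectional. A RefSeq gene (GRCm38.p6) was found for 61 members, and the coordinates of all 61 overlapped it. RefSeq lists 40 of these 61 loci as protein-coding, 16 as lncRNA, 4 as pseudogene and 1 as transcribed pseudogene. The 40 coding loci held 34 exonic sense members, 5 intergenic members (among them Gm4779, Gm10044, Gm11213 and AI481877, now Shoc1) and the antisense member D830044I16Rik, now Cdiptos. Whether a probe also binds the coding mRNA of its locus was not tested, since no probe sequence was used here. Where a member bears the name of a coding gene, its level is that of the lncRNA probe. A clause on the protein then describes the coding gene. Several human matches were pseudogenes or members of multicopy families, such as RPS2P32 for 2700099C18Rik, RPSAP9 for AK017011 and SLC7A5P2 for BC048644. Binding of the probes of these members to near-identical copies was not tested. The X chromosome carried 5 members.

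Levels are given as log2 of the processed spot signal minus the 75th percentile of the same array, so 0 is the signal that 75 percent of the probes of that array stay below. A probe counts as detected in a group when the scanner software marked it well above background on all 3 arrays. Testis was the brightest group, with 75th percentiles of 305 to 384 intensity units on its 3 arrays against 30.7 to 154 on the others. The lowest level that still counted as well above background therefore lay at -4.87 to -4.44 on testis arrays and only at -1.61 to -0.98 on liver arrays. The gap bears on every tissue comparison below, because a weak member can be seen in testis at a level that would go unseen in liver. Of 41 marker genes listed for the labels, only 6 had a probe that could be identified, too few to check the tissue labels, and for 3 of them (Gap43, Snap25 and Apoa1) the probe stands for a lncRNA transcript of the locus. Of the mRNA probes, that of Stra8 was detected in testis and F9 (means 0.10 and 1.25), that of Star in testis, GC-1 and GC-2, and that of the pluripotency gene Zfp42 in F9 (4.65) and testis (-1.61) but on no GC-1 or GC-2 array. The lncRNA probe of Gap43 was detected in brain and in all 3 lines, that of Snap25 in brain and that of Apoa1 in liver.

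**Figure D1:**
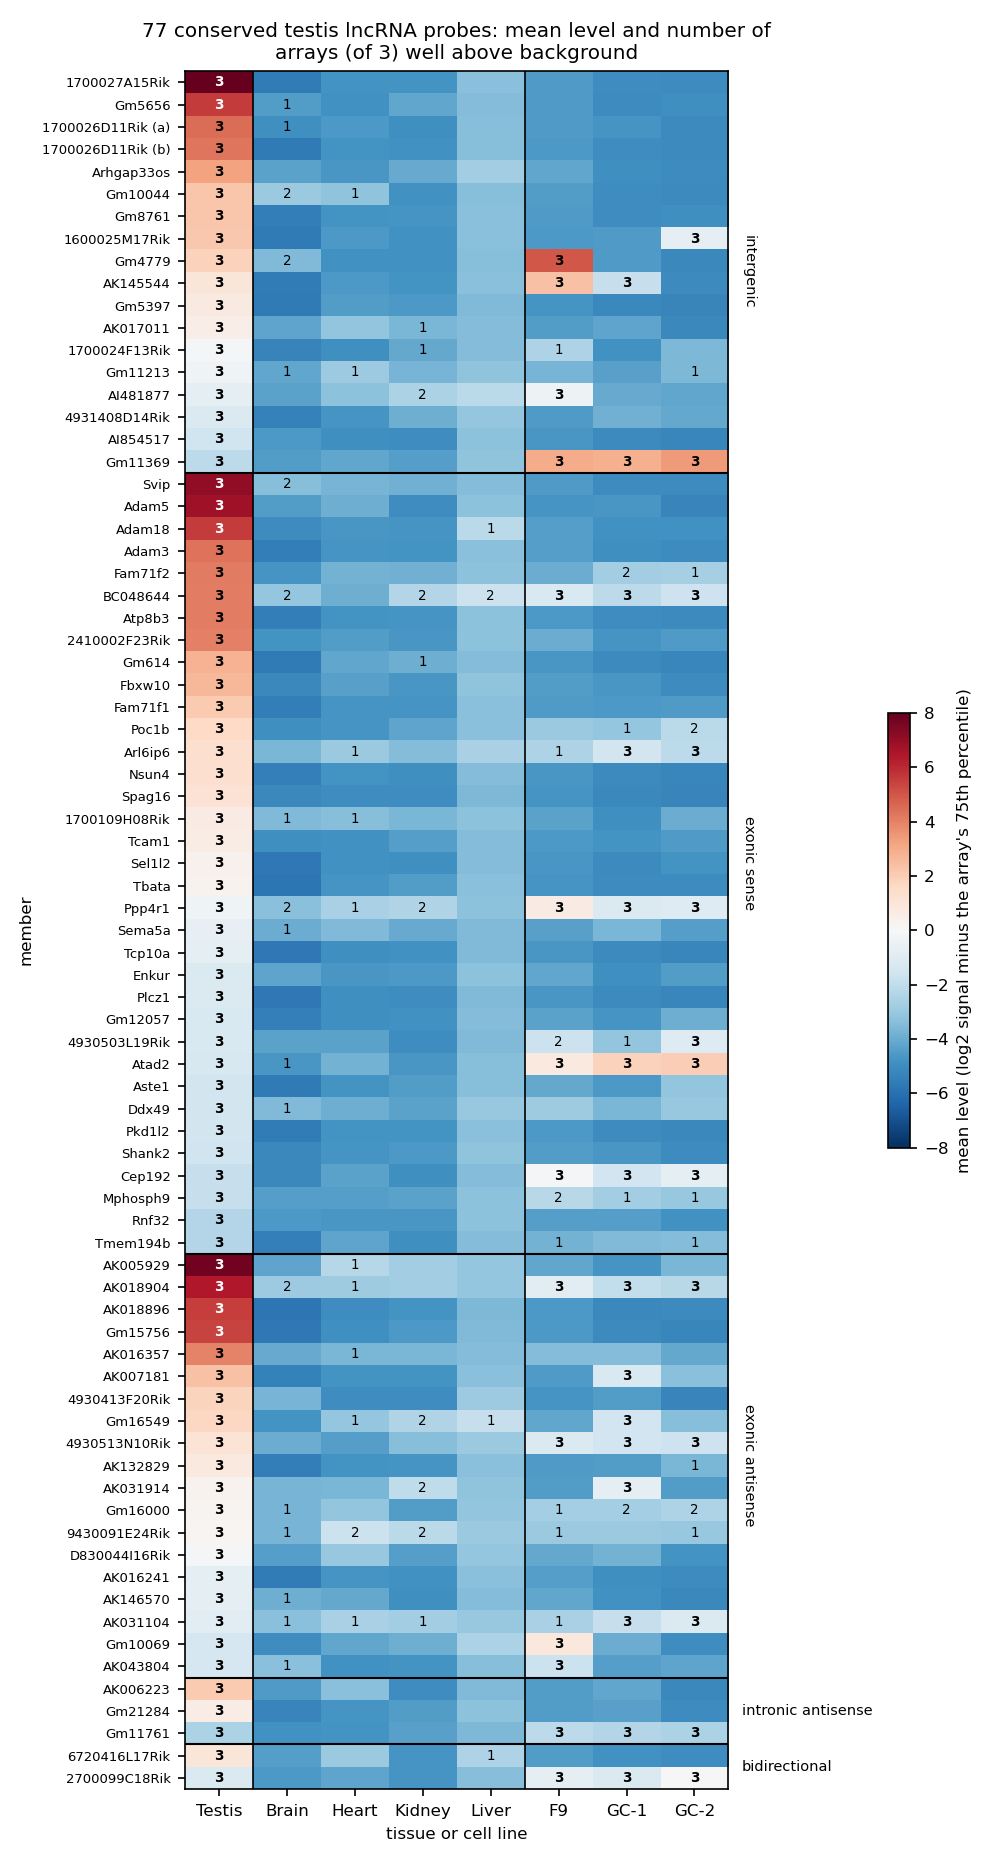
Mean level (colour, log2 of the signal minus the array's 75th percentile) of 77 of the 79 members in 5 tissues and 3 cell lines, n = 3 arrays each. A number gives how many of the 3 arrays were well above background, and no number means none. Rows are grouped by class and ordered by testis level for display only. Every member drawn carries a 3 in testis, none carries a 3 in another tissue, and 21 carry a 3 in at least 1 line.

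All 79 members were detected in testis, where 55.3% of all 60804 probes were. None was detected on all 3 arrays of brain, heart, kidney or liver, where 47.8%, 39.8%, 39.5% and 26.8% of all probes were. Absence from the other tissues was a condition of the choice, so nothing is read from these counts. Mean testis levels ran from -2.54 to 8.38, with a median SD over the 3 arrays of 0.20. The 3 testis arrays lay above all 12 arrays of the other tissues for 78 members, against 13% of all probes. The exception was Gm10069, at -1.33, -1.36 and -1.26 in testis and at -0.65 on liver array 1, which was not marked well above background.

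Since most members gave no signal in the other tissues, only a lower bound of the testis excess can be stated. The bound sets the testis mean against the tissue mean after each tissue array is raised to its lowest level well above background. Over brain, heart and kidney together 48 members reached a bound of at least 5-fold, and over all 4 tissues 35 did, where 5.22% of all probes were both detected in testis and at least 5-fold above each other tissue. Liver set the lowest bound for all 79 members. For 14 members the testis mean lay under what a liver array could show, so no fold over liver can be given for them. These include Gm11369, Gm11761, Cep192, Atad2, Mphosph9 and Rnf32. Against brain, heart and kidney the same weak members were still bounded at 1.12-fold or more.

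**Figure D2:**
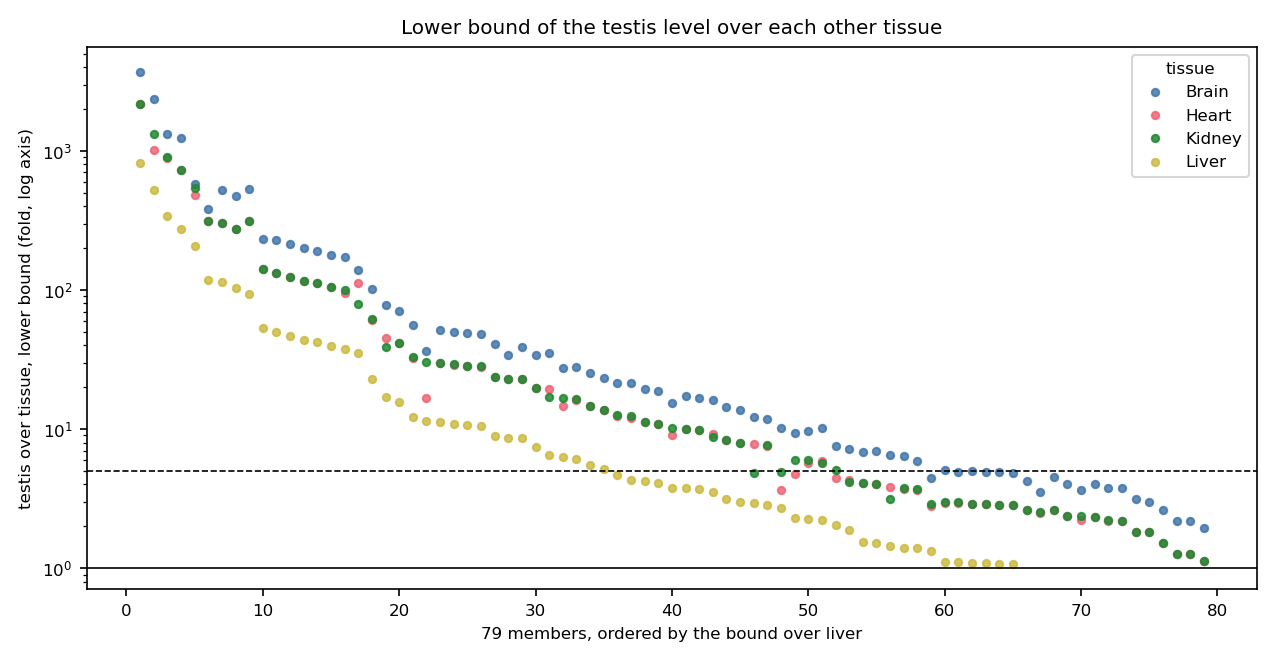
Lower bound of the testis level over each other tissue (fold, log axis) for the 79 members, ordered by the bound over liver. The dashed line marks 5-fold and the solid line 1-fold, and bounds under 1 are not drawn. Liver (yellow) gives the lowest bound throughout, and 14 members have none over liver.

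The 10 members with the largest bound were 1700027A15Rik, AK005929, Svip, Adam5, AK018904, Gm5656, AK018896, Gm15756, Adam18 and the Ensembl transcript of 1700026D11Rik. 1700027A15Rik, an intergenic lncRNA (chr1:73024586-73025508, plus strand), stood at 8.04, 8.57 and 8.53 on the testis arrays and between -5.82 and -3.05 on the 12 others. Its testis level was at least 812-fold above liver and at least 2158-fold above heart, and none of the 12 arrays was well above background. AK005929, antisense to the ubiquitin ligase gene Ubox5 (chr2:130589437-130590006, plus strand), was at 7.57, 7.91 and 7.72 in testis and at most -2.07 elsewhere. It lay at least 520-fold above liver and was well above background on heart array 1 alone. Svip, whose coding gene makes a small partner of the ATPase VCP (chr7:51997161-52005714, minus strand), measured 6.81, 7.23 and 7.30 in testis. The Svip probe was well above background on brain arrays 1 and 3, at -3.34 and -3.29, and its bound over liver was 339-fold. AK018904, antisense to Gm9705 (chr17:32634702-32635134, minus strand), was at 6.24, 6.49 and 6.52 in testis, at least 209-fold above liver, and well above background on 2 brain arrays and 1 heart array.

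Gm5656, a RefSeq pseudogene whose human match was SERPINA2, lay at least 117-fold above liver and was well above background on brain array 3 at -2.08. AK018896, antisense to Adipoq, the gene of the fat hormone adiponectin, measured 5.59, 5.52 and 5.51 in testis and was well above background on none of the other 12 tissue arrays. Gm15756, antisense to the folate enzyme gene Aldh1l1, measured 5.14, 5.73 and 5.32 and was likewise on none. Their bounds over liver were 114-fold and 103-fold. The probes of 1700026D11Rik, 1 for an Ensembl and 1 for a RefSeq transcript of the same locus, differed in their spread. The Ensembl probe was at 4.46, 4.46 and 4.42 in testis, while the RefSeq probe was at 2.78, 5.00 and 4.98, the widest testis SD of all members (1.27). Both stayed at or below -3.06 in the other tissues. The Ensembl probe was well above background on brain array 3, at -3.34, and the RefSeq probe on no array of another tissue.

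Annotated promoters were looked up for the members with a RefSeq gene. Many of those found belong to exonic sense members, most of whose loci RefSeq lists as protein-coding. Whether the RNA measured here starts at them was not tested. RefSeq (GRCm38.p6) had a promoter, from 250 bases before to 50 bases after a transcript start, whose start lay within 100 bases of the member's on the same strand for 26 members, or 25 distinct promoters. 12 letter patterns were searched on both strands. The full cyclic AMP response element TGACGTCA, to which the spermatid activator CREM binds, was in 4 of 25 (16%) and in 1.79% of all 32851 promoters. Its holders were Gm15756, 9430091E24Rik, Ddx49 and AI854517, now Mir9-3hg. The looser forms TGACGTNA and TGANGTCA, which include it, were in 4 and 8 of the 25, against 2.93% and 8.83% of all. The X-box, to which RFX factors bind, was in 0 in its full form and in 1 in a shorter form, against 0.451% and 2.55%. The MYB patterns AACTGNC and CNGTTNNC were in 3 and 13, against 12.8% and 39%. TATAAA was in 5 (13.6% of all), CCAAT in 7 (37.4%), GGGCGG in 9 (35.7%), TTTGGCGC in 0 (0.514%) and TTTCCCGC in 1 (1.07%). These are matches of letters in a window, chosen and counted without a test.

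The promoters of the 3 noncoding holders of TGACGTCA are printed with that element in capitals, and that of 1700027A15Rik, the member with the largest bound, with its TATAAA matches in capitals. Each runs 5′ to 3′ on the strand of the gene. The element began 68 bases before the start in Gm15756 (chr6:90599891-90600190, minus strand), 134 bases before it in 9430091E24Rik (chr8:111145449-111145748, minus strand) and 51 bases before it in AI854517 (chr7:79499776-79500075, plus strand). The promoter of 1700027A15Rik is chr1:73024336-73024635 on the plus strand and held 2 TATAAA matches.
Gm15756: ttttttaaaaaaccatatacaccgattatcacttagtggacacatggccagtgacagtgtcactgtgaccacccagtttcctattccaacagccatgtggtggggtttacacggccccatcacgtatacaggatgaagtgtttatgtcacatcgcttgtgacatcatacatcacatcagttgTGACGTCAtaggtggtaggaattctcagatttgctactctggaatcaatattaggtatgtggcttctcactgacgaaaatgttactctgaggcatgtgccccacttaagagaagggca
9430091E24Rik: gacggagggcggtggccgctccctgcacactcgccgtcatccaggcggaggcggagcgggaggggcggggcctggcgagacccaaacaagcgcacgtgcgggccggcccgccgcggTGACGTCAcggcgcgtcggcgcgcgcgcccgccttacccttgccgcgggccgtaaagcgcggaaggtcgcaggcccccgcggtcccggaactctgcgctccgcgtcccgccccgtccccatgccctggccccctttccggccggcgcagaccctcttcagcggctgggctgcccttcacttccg
AI854517: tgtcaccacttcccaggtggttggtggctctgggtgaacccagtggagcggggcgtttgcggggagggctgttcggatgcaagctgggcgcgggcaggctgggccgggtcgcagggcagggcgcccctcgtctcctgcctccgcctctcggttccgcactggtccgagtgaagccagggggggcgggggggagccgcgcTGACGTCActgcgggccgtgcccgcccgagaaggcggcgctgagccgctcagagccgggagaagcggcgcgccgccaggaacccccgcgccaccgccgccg
1700027A15Rik: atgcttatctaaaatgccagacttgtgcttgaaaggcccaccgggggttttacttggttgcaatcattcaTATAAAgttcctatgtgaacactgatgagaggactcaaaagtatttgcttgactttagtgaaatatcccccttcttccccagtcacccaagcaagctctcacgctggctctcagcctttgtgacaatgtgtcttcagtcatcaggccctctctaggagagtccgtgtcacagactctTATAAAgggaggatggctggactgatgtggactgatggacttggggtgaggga
Gm15756 and 1700027A15Rik were well above background on all 3 testis arrays and on no line array. 9430091E24Rik, antisense to Pdpr, was at 0.48, 0.03 and -0.04 in testis, and was also well above background on 5 arrays of brain, heart and kidney. AI854517, the host transcript of a miR-9 precursor, was at -2.37, -1.23 and -1.13 in testis.

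The exonic sense members were grouped by what the coding gene of the locus is known to do. The group of sperm surface, acrosome and oocyte activation genes held 7 members, of which 6 were at least 5-fold above every other tissue as a bound, 1 had a trace elsewhere and 0 were detected in a line. Adam5, Adam18 and Adam3 belong to the ADAM family of membrane proteins of sperm, and the 3 loci lie next to each other on the minus strand of chromosome 8 (24602250 to 24823985). Adam5 measured 6.83, 6.76 and 6.81 in testis, with a bound of 273-fold over liver. Adam18 measured 5.70, 5.48 and 5.57, and was well above background on liver array 1 at 0.01 and on no other array outside testis. Adam3, which sperm need to pass into the oviduct, measured 4.33, 4.41 and 4.30 and was well above background nowhere else. All 3 were thus high in testis and unseen in F9, GC-1 and GC-2. The neighbours Fam71f2 and Fam71f1 on chromosome 6 were at 4.16 ± 0.13 and 2.11 ± 0.34 (SD, n = 3), with bounds of 43.6-fold and 10.6-fold. Fam71f2 was also well above background on 2 GC-1 arrays and 1 GC-2 array. Atp8b3, a lipid flippase of the acrosome, was at 4.10 ± 0.32 and at least 41.9-fold above liver. The coding gene of Plcz1 makes the sperm phospholipase that starts calcium waves in the egg. The lncRNA probe of Plcz1 was at -1.49, -1.08 and -0.94, bounded at 1.09-fold over liver and 2.88-fold over heart.

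Genes of the cilium, the flagellum and the centriole gave 7 members, of which 3 had a bound of at least 5-fold over every other tissue, 0 had a trace in another tissue and 2 were detected in a line. Spag16, part of the central apparatus of the sperm tail, was at 1.20, 1.1 and 1.23 in testis and was well above background on no other array. Poc1b, a centriole protein, was at 1.46, 1.65 and 1.71, and its bound over liver was 7.44-fold. A second probe, for the Poc1b mRNA, was at 2.77 ± 0.13 in testis and was detected in GC-1 and GC-2, where the member's probe was well above background on 1 and 2 arrays. Enkur, Tcp10a, Mphosph9 and Cep192 had testis means of -1.13, -0.69, -1.85 and -1.84 and no bound of 5-fold over liver. The testis-named pair Tbata and Tcam1 was at 0.29 ± 0.20 and 0.59 ± 0.44, with bounds of 3.00-fold and 3.68-fold over liver and no detection elsewhere. The other 20 exonic sense members had 7 with a bound of at least 5-fold over every other tissue, 9 with a trace and 5 detected in a line.

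Traces in the other tissues were frequent, and in brain and heart they lay mostly on array 1. In all, 30 of 79 members (38.0%) were well above background on at least 1 of the 12 arrays, against 37.2% of the 7038 probes of the array that were detected in testis and in no other tissue. There were 16 members with a single such array, 6 with 2 and 8 with 3 or more. Brain gave 19 members, heart 12, kidney 11 and liver 4. Array 1 of brain held 15 of the brain traces and array 1 of heart 10 of the heart traces, while brain array 2 and heart arrays 2 and 3 held 2 each. Both arrays were on slide 1, apart from their replicates, and had their groups' lowest level counted as well above background (-3.81 and -3.25). Array 1 of kidney and of liver, also on slide 1, held 6 and 2. Whether slide or that level bears on the traces was not tested. Without brain array 1 the brain count was 10, without heart array 1 the heart count was 4, and without liver array 1 the liver count was 2.

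On 2 arrays of 1 tissue, 11 members were well above background, and 7 of these were also detected in a cell line. The same shares over other probes were not counted, so nothing is read from these counts. BC048644, a RefSeq lncRNA locus, had the most traces, with 2 arrays each of brain, kidney and liver. Its levels were 4.55, 3.90 and 3.90 in testis, -3.40, -1.81 and -1.87 in kidney and -3.01, -0.51 and -1.58 in liver. Ppp4r1, a subunit of protein phosphatase 4, was well above background on 2 brain, 1 heart and 2 kidney arrays, at -2.60 to -2.35 in heart and kidney against -0.83, -0.25 and -0.03 in testis. The probe for the Ppp4r1 mRNA was well above background on 2 brain, 1 heart, 2 kidney and also 1 liver array, with a testis mean of 0.17 ± 0.29. 9430091E24Rik reached -1.28, -2.34 and -1.54 in heart. Gm10044 was well above background on 2 brain arrays, at -2.73 and -2.66, and on heart array 2, at 0.06 against -5.36 and -4.37 on the other heart arrays. Gm16549 (antisense to Fndc3a), AK031914 (antisense to Chrac1) and AI481877 were each on 2 kidney arrays, at most at -2.17, -1.49 and -2.22 there. Gm4779, Svip and AK018904 were also on 2 brain arrays, at most at -2.85, -3.29 and -2.30 there.

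F9 showed 15 of the 79 members, GC-1 showed 16 and GC-2 showed 13, or 19%, 20.3% and 16.5%. Among the 7038 probes detected in testis and in no other tissue the shares were 10.6%, 12% and 11.8%, and among all probes they were 36.7%, 40.9% and 40.9%. In at least 1 line 22 members (27.8%) were detected, against 18.7% of those 7038, and in all 3 lines 9 (11.4%), against 5.41%. These shares are descriptions of the lists and were not tested against each other. Another 10 members were well above background on some line arrays but on all 3 of no line, and 47 were on none of the 9 line arrays. By class, 8 of 19 exonic antisense, 7 of 36 exonic sense, 5 of 19 intergenic, 1 of 3 intronic antisense and 1 of 2 bidirectional members were detected in a line.

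The median difference of the members from testis was -4.74 for F9, -4.72 for GC-1 and -4.72 for GC-2 on the log2 scale. That of all 60804 probes was 1.63, 1.43 and 1.35. The members were chosen for a high testis level, so their direction is in part fixed by the choice. In all, 57 members were detected in no line, so their medians rest largely on levels under background and are no measured fold. With the normexp background correction the members' medians were -1.65, -1.93 and -2.09. The offset of all probes moved with the processing. It was 1.35, 1.12 and 1.05 with normexp and 0.24, 0.25 and 0.25 under quantile normalization. It was 0.04, -0.05 and -0.19 when the 75th percentile was taken over probes detected on every array. A line level above testis is therefore given below with its value under the last of these scalings. All 3 line arrays lay below all 3 testis arrays for 66 members with F9, 74 with GC-1 and 72 with GC-2. The choice of the members favours this direction and the share of all probes was not counted, so nothing is read from these counts. Detected with all 3 line arrays above the testis arrays were 6 members with F9, 3 with GC-1 and 4 with GC-2. The same was seen for 27.1%, 30% and 29.6% of all probes, and for 6.71%, 7.23% and 7.09% of the 7038. 1700027A15Rik lay at least 1772-fold, AK005929 at least 1134-fold, Svip at least 739-fold and Adam5 at least 595-fold above F9, the line with the lowest bound for each.

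**Figure D3:**
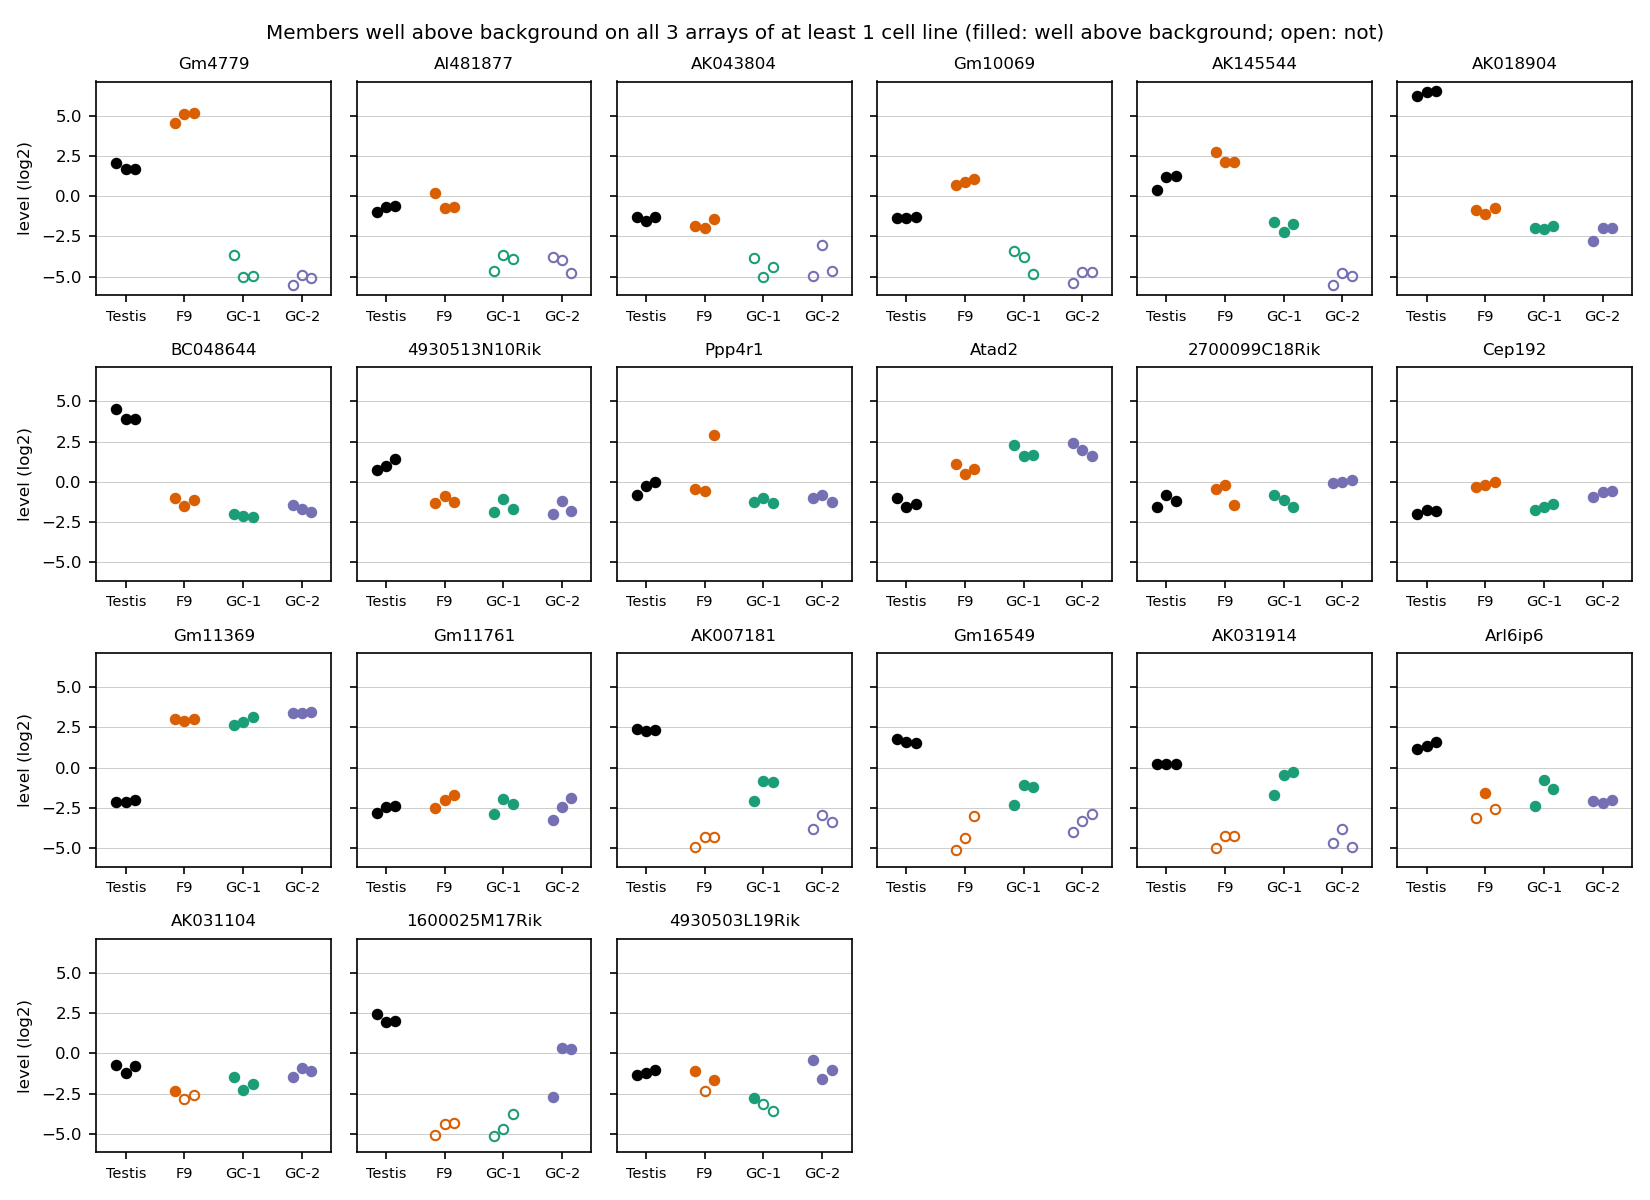
Level (log2 of the signal minus the array's 75th percentile) on each of the 3 arrays of testis, F9, GC-1 and GC-2 for 21 of the 22 members detected in at least 1 line. Filled circles were well above background and open circles were not. Gm11369, Atad2 and Cep192 lie above testis in all 3 lines, 2700099C18Rik in GC-2, and Gm4779, Gm10069 and AK145544 in F9. With the percentile over probes detected on every array, the AK145544 excess turns to -0.20 and that of 2700099C18Rik to -0.35. Under the same scaling Cep192 differs from testis by 0.07 (F9), -1.18 (GC-1) and -0.42 (GC-2).

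The 9 members detected in all 3 lines were AK018904, BC048644, 4930513N10Rik, Ppp4r1, Atad2, 2700099C18Rik, Cep192, Gm11369 and Gm11761. Gm11369, a short intergenic transcript (chr13:30399617-30399934, minus strand), had the largest line excess over testis of the 9. Its human match was KIAA0101, the gene of a PCNA-binding protein of dividing cells, and whether the probe also binds the mRNA of the mouse counterpart was not tested. Gm11369 measured -2.15, -2.13 and -2.03 in testis. It measured 3.00, 2.92 and 3.01 in F9, 2.63, 2.82 and 3.16 in GC-1 and 3.40, 3.41 and 3.47 in GC-2. The 9 line arrays all lay above the 3 testis arrays, by 5.08, 4.97 and 5.53 in the mean and by 3.49, 3.5 and 3.99 with the percentile over common probes. Its widest difference between lines, GC-1 minus GC-2, was -0.56 ± 0.19 (SE), with an adjusted p of 0.0993 in the limma fit.

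The coding gene of Atad2 makes a chromatin ATPase with a bromodomain that dividing cells express. The lncRNA probe of Atad2 measured -0.97, -1.57 and -1.38 in testis and 1.12, 0.52 and 0.79 in F9. It measured 2.27, 1.64 and 1.69 in GC-1 and 2.43, 1.96 and 1.59 in GC-2. The arrays of all 3 lines lay above those of testis, by 2.12, 3.18 and 3.30 in the mean and by 0.53, 1.70 and 1.76 with the percentile over common probes. For Atad2, F9 minus GC-1 was -1.06 ± 0.29 (adjusted p = 0.0177 in the limma fit) and F9 minus GC-2 was -1.18 ± 0.29 (adjusted p = 0.00982), both under the 5-fold asked for a call. Cep192, a scaffold of the centrosome, exceeded testis by 1.66 (F9), 0.30 (GC-1) and 1.12 (GC-2). With the percentile over common probes these became 0.07, -1.18 and -0.42, so only the F9 excess kept its sign. Between lines, Cep192 was 1.36 ± 0.20 higher in F9 than in GC-1 (adjusted p = 0.000263 in the limma fit), with no overlap of the arrays.

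2700099C18Rik, a transcribed pseudogene beside Mettl4 and on the opposite strand to it, measured -0.06, -0.03 and 0.13 in GC-2 and -1.54, -0.82 and -1.17 in testis. Its GC-2 excess of 1.19 turned to -0.35 with the percentile over common probes. Other probes of this locus, for NR_024720, uc008dwo.2 and uc008dwq.2, were also detected in testis and all 3 lines, with means of 2.50 ± 0.24, 1.66 ± 0.31 and 1.12 ± 0.16 (SD, n = 3) in F9. Ppp4r1 measured -0.43, -0.55 and 2.92 in F9, so that a single array stood apart. Its F9 mean exceeded testis by 1.01, which became -0.58 with the percentile over common probes, and its difference of 1.82 ± 0.71 from GC-1 had an adjusted p of 0.0848 in the limma fit. The Ppp4r1 mRNA probe had no such array, at -0.17 ± 0.52 in F9.

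AK018904, BC048644 and 4930513N10Rik were seen in every line and lay below testis on all line arrays. AK018904 stood at -0.86, -1.1 and -0.75 in F9, -1.99, -2.07 and -1.85 in GC-1 and -2.78, -1.95 and -1.95 in GC-2, a difference of -7.32, -8.38 and -8.64 from testis. It was 1.07 ± 0.25 higher in F9 than in GC-1 (adjusted p = 0.00714 in the limma fit) and 1.33 ± 0.25 higher than in GC-2 (adjusted p = 0.00181). BC048644 differed from testis by -5.30 (F9), -6.20 (GC-1) and -5.78 (GC-2). 4930513N10Rik, antisense to the deadenylase gene Cnot1, differed from testis by -2.23, -2.59 and -2.73 in the same lines. A second 4930513N10Rik probe, for another Ensembl transcript, was at 3.11 ± 0.02 in testis and detected in none of the lines, with 1 F9 array well above background. Gm11761, inside an intron of Rptor on the other strand, ranged from -3.22 to -1.70 on the line arrays and from -2.79 to -2.39 in testis.

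Between lines, limma called 8 members different for F9 and GC-1, 5 higher in F9 (2.86% of all 60804 probes) and 3 higher in GC-1 (3.64%), where 6.51% of all probes were called in either direction. For F9 and GC-2 it called 6, 5 higher in F9 (3.07% of all probes) and 1 higher in GC-2 (3.1%), with 6.17% of all probes called. For GC-1 and GC-2 it called 3, 2 higher in GC-1 (1.82% of all probes) and 1 higher in GC-2 (1.13%), with 2.95% of all probes called. A call needed an adjusted p of 0.05 or less over all probes, a difference of at least 5-fold and detection in the higher line. Both thresholds were set on the fitted difference, in which levels under background in the lower line count as measured. An adjusted p printed beside a lower bound below belongs to the fitted difference, and the bounds were not tested. Several bounds of called differences are under 5-fold, down to 1.85-fold. The 17 calls came from 9 members. Each difference had the same sign between the replicate 1 arrays, which shared a slide, and between the others, which shared another, but the calls were made on these same arrays. The called members were 10.1%, 7.59% and 3.8% of the 79, and these shares were not tested against those of all probes. At 2-fold in place of 5-fold the counts were 11, 10 and 7, against 16.3%, 15.5% and 7.63% of all probes. With the normexp background correction they were 2, 2 and 0, against 2.06%, 2.1% and 0.895% of all probes. An unadjusted p under 0.05 was given by limma to 19, 24 and 18 members without normexp and to 30, 48 and 9 with it. The share of all probes under that p was not counted, so nothing is read from these counts. All probes were shifted much as the members were, with median differences of 0.40, 0.52 and 0.12 against 0.41, 0.53 and 0.12 without normexp. With normexp they were 0.24, 0.31 and 0.07 against 0.27, 0.34 and 0.09.

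**Figure D4:**
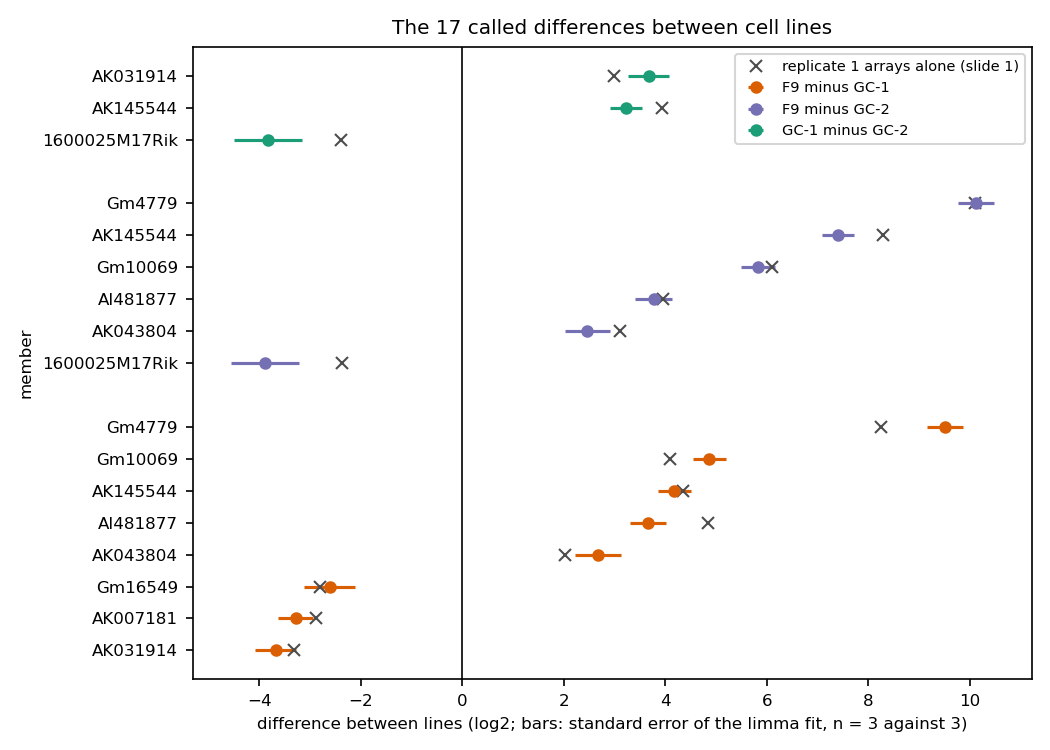
The 17 called differences between lines (log2), 9 members in 3 comparisons. Circles give the limma estimate and bars its standard error (n = 3 against 3), and crosses give the difference between the replicate 1 arrays alone. Gm4779 differs by 9.51 and 10.12 between F9 and the other lines, and 1600025M17Rik differs less between the replicate 1 arrays than in the fit.

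Gm4779, an X-linked locus (chrX:101790348-101792334, minus strand), carried the largest differences. It measured 4.57, 5.13 and 5.16 in F9 and 2.08, 1.67 and 1.70 in testis, but -3.68, -5.01 and -4.98 in GC-1 and -5.52, -4.89 and -5.07 in GC-2, where no array was well above background. F9 was at least 226-fold higher than GC-1 (adjusted p = 3.45e-09 in the limma fit) and at least 246-fold higher than GC-2 (adjusted p = 2.13e-09). F9 also lay above testis, by 3.14, and by 1.55 with the percentile over common probes. A second Gm4779 probe, for another Ensembl transcript, behaved otherwise. It was detected in all 8 groups, between 6.99 ± 0.30 in brain and 9.11 ± 0.25 in GC-1, and differed between F9 and GC-1 by -0.51 ± 0.22 (adjusted p = 0.126 in the limma fit).

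AK145544, an intergenic member of chromosome 13 whose human match was the read-through ZNF625-ZNF20, fell into steps across the lines. It measured 2.75, 2.13 and 2.10 in F9, -1.61, -2.22 and -1.73 in GC-1 and -5.54, -4.75 and -4.93 in GC-2, against 0.38, 1.17 and 1.27 in testis. F9 was 18.1-fold higher than GC-1 (adjusted p = 1.34e-06 in the limma fit) and at least 39.8-fold higher than GC-2 (adjusted p = 1.06e-08). GC-1 was at least 2.20-fold higher than GC-2 (adjusted p = 3.08e-05). The F9 excess over testis of 1.39 turned to -0.20 with the percentile over common probes. The array's annotation gives this probe a match to the mRNA of Gm10324 as well.

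Gm10069, antisense to the protease inhibitor gene Pzp and matched to the human pseudogene A2MP1, measured 0.69, 0.88 and 1.04 in F9 and was well above background on no GC-1 or GC-2 array. F9 was at least 13.4-fold higher than GC-1 (adjusted p = 5.25e-07 in the limma fit) and at least 14.5-fold higher than GC-2 (adjusted p = 1.06e-07). F9 lay above testis by 2.19, and by 0.60 with the percentile over common probes. AI481877, now Shoc1, a meiotic crossover gene, measured 0.21, -0.73 and -0.68 in F9 and -1.0, -0.68 and -0.62 in testis, so that these groups overlapped. F9 was at least 5.53-fold higher than GC-1 (adjusted p = 1.11e-05 in the limma fit) and at least 6.02-fold higher than GC-2 (adjusted p = 8.63e-06). AK043804, antisense to the helicase gene Helz, measured -1.83, -1.98 and -1.43 in F9 and was at least 2.17-fold higher there than in GC-1 (adjusted p = 0.000746 in the limma fit). Its difference from GC-2 of 2.46 ± 0.45 was the call closest to the 5-fold limit, and it was lost under quantile normalization, within slide 3 and without F9 array 3, GC-2 array 1 or GC-2 array 3.

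The 3 members called higher in GC-1 than in F9 were all exonic antisense. AK007181, antisense to Tmem165, measured -2.04, -0.80 and -0.86 in GC-1 and -4.92, -4.31 and -4.33 in F9, at least 2.27-fold higher in GC-1 (adjusted p = 1.95e-05 in the limma fit). AK031914, antisense to the histone-fold gene Chrac1, measured -1.68, -0.47 and -0.25 in GC-1 and was at least 3.06-fold higher there than in F9 (adjusted p = 2.62e-05) and at least 4.56-fold higher than in GC-2 (adjusted p = 7.11e-05 in the limma fit). Gm16549 measured -2.30, -1.08 and -1.20 in GC-1 and was at least 1.85-fold higher there than in F9 (adjusted p = 0.00201 in the limma fit), a call that was lost without F9 array 1. Their GC-1 means differed from testis by -3.56, -1.06 and -3.18.

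1600025M17Rik, an X-linked intergenic lncRNA (chrX:56317608-56320664, plus strand), was the member called higher in GC-2. It measured -2.71, 0.34 and 0.27 in GC-2, array 1 lying far below the other arrays, and 2.45, 1.98 and 2.05 in testis. GC-2 was at least 3.29-fold higher than F9 (adjusted p = 0.00104 in the limma fit) and at least 4.5-fold higher than GC-1 (adjusted p = 0.00263). 4930503L19Rik on chromosome 18 was detected in GC-2 as well, at -0.41, -1.56 and -1.03, and its GC-1 minus GC-2 difference of -2.17 ± 0.36 (adjusted p = 0.00188 in the limma fit) was under the 5-fold asked. It was also well above background on 2 F9 arrays and 1 GC-1 array. Its F9 minus GC-2 difference was -0.69 ± 0.36 (adjusted p = 0.157 in the limma fit). The GC-2 arrays of 4930503L19Rik overlapped those of testis, at -1.35, -1.20 and -1.05.

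Neither Arl6ip6 nor AK031104 had a called difference between lines, and each was also well above background on 1 F9 array. Arl6ip6, a membrane protein gene, was detected in GC-1 and GC-2, with differences of -2.86 and -3.45 from testis. AK031104, antisense to the phosphatase gene Ppm1e, was at -1.44, -0.90 and -1.08 in GC-2 and at -0.69, -1.21 and -0.77 in testis, with overlapping arrays, and its F9 minus GC-2 difference was -1.45 ± 0.27 (adjusted p = 0.0016 in the limma fit).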

How the data were processed

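Total RNA was labelled with Cy3 and hybridised to 1-colour Arraystar mouse lncRNA arrays. Per the labels and the file headers, the authors scanned these with Agilent Feature Extraction 11.5.1.1, and the deposited scanner files hold background-subtracted, detrended spot intensity values without normalization between arrays. RNA kits differ between the labels and the methods. The deposited table of the authors' values held the same intensity values and no further scaling.

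Here log2 of the processed signal minus each array's 75th percentile over 60804 transcript probes was taken. Array number limits the precision. The 12 arrays of testis and the lines were fitted with limma 3.58.1 (R 4.3.3), without covariates, with Benjamini-Hochberg adjustment over all probes. Same-numbered line arrays deviated together over 19294 probes (r from 0.13 to 0.54 in 9 pairs, all above 0.1), with 1 array of each line on slide 1 and 2 on slide 3, so a replicate block was run as an alternative. Testis array 1 was on slide 1 too, but testis arrays 2 and 3 were on slide 2, which held no line array. In the differences between lines and testis, slide and group therefore cannot be fully told apart. Spots were neither saturated nor outliers for any member.

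Members with values in the text were those detected in a line, called between lines or on 2 arrays of another tissue, the 10 largest bounds, RT-PCR targets, Adam and Fam71f members, and repeat probes. Members and lists were chosen with earlier results of these data known. Values of 2 members are not reported here. Alternatives are given in the closing section. Human matches, classes and transcript coordinates were taken as identifiers from the study's sheet.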

Additional observations from a re-analysis of the deposited data

Results flagged for a closer look

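In 3 members the arrays of F9 lay above all testis arrays while those of GC-1 and GC-2 lay below all of them. The share of all probes with this pattern was not counted, so nothing is read from the number. The difference between the lines was tested in the limma fit. For Gm4779 F9 minus GC-1 was 9.51 (adjusted p = 3.45e-09) and F9 minus GC-2 was 10.12 (adjusted p = 2.13e-09). For AK145544 these differences were 4.18 (adjusted p = 1.34e-06) and 7.40 (adjusted p = 1.06e-08), with the F9 excess over testis turning to -0.20 when the 75th percentile was taken over common probes. For Gm10069 they were 4.87 (adjusted p = 5.25e-07) and 5.82 (adjusted p = 1.06e-07). No GC-1 or GC-2 array was well above background for Gm4779 and Gm10069, and no GC-2 array for AK145544. There the differences are fitted values, and only the lower bounds given above hold as folds. The second Gm4779 probe was detected in every group and differed by -0.51 between F9 and GC-1.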

How the results depend on the processing

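The counts of members called for F9 and GC-1, F9 and GC-2, and GC-1 and GC-2 (8, 6 and 3) were 8, 6 and 3 with a replicate block on the paired array numbers, with slide as a block, with the 9 line arrays alone, with the filter on dim probes and with the percentile over probes detected on every array, and the block changed no call. With normexp on the median signal, chosen after seeing the data since the files hold no mean signal and the planned form was not run, they were 2, 2 and 0, all shared with the 8 and 6, and 13 of 17 differences fell under a threshold. The cause was not tested. Without a detection requirement they were 9, 6 and 3, and within slide 3 they were 8, 6 and 5. At 2-fold they were 11, 10 and 7. Under quantile normalization and within slide 3 AK043804 lost its F9 to GC-2 call. Leaving out 1 array gave 8 to 9, 5 to 6 and 3 to 5, with 5 reached without GC-1 replicate 1 or GC-2 replicate 2, where 4930503L19Rik and AK007181 were gained. No difference reversed under any of these settings.

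Detection depended on the flag. With the flag for a positive and significant signal, 27, 32 and 32 members were detected in F9, GC-1 and GC-2, 40 in at least 1 line, 20 in all 3, and brain showed 28, heart 20, kidney 17 and liver 2, while 69 had a trace elsewhere (brain 61, heart 46, kidney 47, liver 31). With 1 common threshold, the highest of the arrays' lowest levels well above background (-0.98), 8, 2 and 4 were detected in F9, GC-1 and GC-2, 9 in at least 1 line and 2 in all 3, and 6 had a trace, 5 of them in liver, 1 in heart and 0 in brain or kidney. The shares of all probes under either rule were not counted. These counts therefore show how detection moves with the rule, and nothing particular to the members is read from them. Leaving out 1 array, brain gave 0 to 4 detected members, kidney 0 to 3, and heart and liver 0 to 1 each, and traces numbered 10 to 19 in brain (10 without array 1), 4 to 12 in heart (4 without array 1) and 2 to 4 in liver (2 without array 1). The median difference of the members from testis in F9, GC-1 and GC-2 was -1.65, -1.93 and -2.09 with normexp and -6.33, -6.20 and -6.26 with the percentile over common probes. Under quantile normalization it was -4.45 in GC-2, and without 1 array it ran from -5.12 to -4.48, from -4.73 to -4.43 and from -5.05 to -4.69. Signal over background limits what can be said of weak members in liver, and of members near the floor in the lines.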
